A study of Mus musculus with 11 samples.

Results

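Cortex of mice in which floxed Prkcz was combined with Ng2-Cre (Prkcz cKO, 3 libraries) was compared with cortex of control mice (4 libraries) at postnatal day 30. These 7 libraries, each made from a different animal, are part of a series of 11. The other 4 come from mice labelled Ng2 Cre+ Prkci f/f (Prkci cKO) and serve here for a direct test between the knockouts and for the estimate of spread. The genes compared are the 14330 of 16228 in the deposited table that reached a value of 1 in no fewer than 3 of the 11 libraries. The 1898 others were left out. All 3 Prkcz cKO animals carry the label Ng2-Cre+ Prkcz f/f. Control replicates 1 and 2 are labelled Pkcz f/+ and Control replicates 3 and 4 Pkcz f/f, so all controls carry at least 1 floxed allele and none carries Cre. The labels give no treatment. Tissue was total RNA from 4 mm punches of cerebral cortex, and the whole punch was sequenced without sorting of cells. No animal with Ng2-Cre and without a floxed kinase gene is in the series. In Prkcz cKO against control, effects of Cre, of its transgene and of the deletion cannot be told apart.

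PRKCZ is one of the atypical protein kinases C, enzymes that bind PAR6 and PAR3 and help to set up cell polarity, and that, unlike other protein kinases C, do not need diacylglycerol or calcium. Ng2-Cre is driven by regulatory sequence of Cspg4, the gene of the NG2 proteoglycan. In the brain, NG2 is made by oligodendrocyte precursor cells and by pericytes on capillaries. Precursors pass through a committed, newly formed stage before they become oligodendrocytes, the cells that wrap axons in myelin.

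The 7 libraries had effective depths of 20620000 to 24660000 reads by the steps of their low values, except Prkcz cKO replicate 3, at about 14740000. Across genes, log values of 2 replicates of one group had an r of 0.992 to 0.995. Slc17a7, the vesicular glutamate transporter of cortical excitatory neurons, lay between 1968 and 2179 in all 7 libraries, and no gene of the lists of 34 cortical layer and 32 interneuron genes passed the test. Some neighbouring tissue varied from punch to punch. The median of 23 choroid plexus and ependyma genes stood at -1.41 in Control replicate 1 and 0.96 in Control replicate 2, on the log2 scale against the mean of the controls. The median of 29 striatal genes stood at 0.58 in Prkcz cKO replicate 3, against -0.42 and -0.35 in its other two libraries. No member of either list passed. The part of these punch differences in the results below was not tested.

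Values in the text are the normalized expression values of the deposited table. Changes are differences of log2(value + 0.5) between group means, from a limma fit over all 11 libraries, and a gene is said to have risen or fallen where its p adjusted by the Benjamini-Hochberg method over all genes tested is under 0.05.

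Prkcz itself (chromosome 4, 155260129 to 155361361, GRCm38) had values of 347.46, 323.94, 297.97 and 322.07 in the controls and 278.62, 262.39 and 292.47 in Prkcz cKO. Every knockout library lay below every control, by a small margin: Control replicate 3 (297.97) and Prkcz cKO replicate 3 (292.47) were the closest pair. The log2 change was -0.22 (SE 0.0546), or -13.9% of the control mean, and did not pass (adjusted p = 0.0966). An exact permutation test over the 35 splits of 3 and 4 libraries gave a two-sided p of 0.0571, the smallest this design allows. Against the f/+ controls alone the change was -0.27 (adjusted p = 0.0428), and against the f/f controls alone -0.16 (adjusted p = 0.271). The paralog Prkci was 85.28, 86.09, 89.02 and 90.69 in the controls and 91.49, 84.39 and 82.36 in Prkcz cKO, groups that overlap (log2 change -0.03, adjusted p = 0.808; exact permutation p = 0.514). The deposited values count a whole gene over all cells of the punch, so they do not show the floxed exons or the Cre-expressing cells alone. Of the 29 genes listed for the atypical kinases and their polarity partners, none passed and the median change was -0.03. Of 9 tested genes of the other protein kinase C isoforms, only Prkcq, the theta isoform, fell (log2 change -0.46, adjusted p = 0.0481). Prkcq lost its call whichever of the 7 libraries was left out.

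Across the genome the change was small and leaned to lower values. Of 14330 genes, 93 passed (0.649%), of which 89 were lower (0.621%) and 4 higher (0.0279%). At an unadjusted p under 0.05 there were 2144 genes, 1339 lower and 805 higher. Changes of the 93 genes were between 0.25 and 2.12 in size on the log2 scale, and 45 of them were under 0.5. The 3 knockout libraries lay outside the range of the 4 controls for all 93 genes. Over all genes tested, this held for 963 lower (6.72%) and 739 higher (5.16%). Just inside the threshold were Ctnnd1 (log2 change -0.25, adjusted p = 0.0485) and Nfkb2 (-0.68, adjusted p = 0.0489). Just outside it were Egr2 (-1.92, adjusted p = 0.0509) and the myelin regulatory factor Myrf, listed under its older symbol Gm98 (-0.64, adjusted p = 0.0509). Of the 93 genes, 48 belong to at least 1 of 38 lists of cell type and pathway genes and 45 to none. With each of the 7 libraries left out in turn, 6 genes passed every time (Snupn, Imp3, Gpr17, Tns3, Flt1 and Kank1) and 13 passed in none. A further 19 genes passed in only 1 of these 7 runs and 21 in only 2. The count was lowest without Prkcz cKO replicate 2 (12 genes) and without Prkcz cKO replicate 3 (13 genes), and it was 27 without Control replicate 1 and 50 without Control replicate 2.

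**Figure D1:**
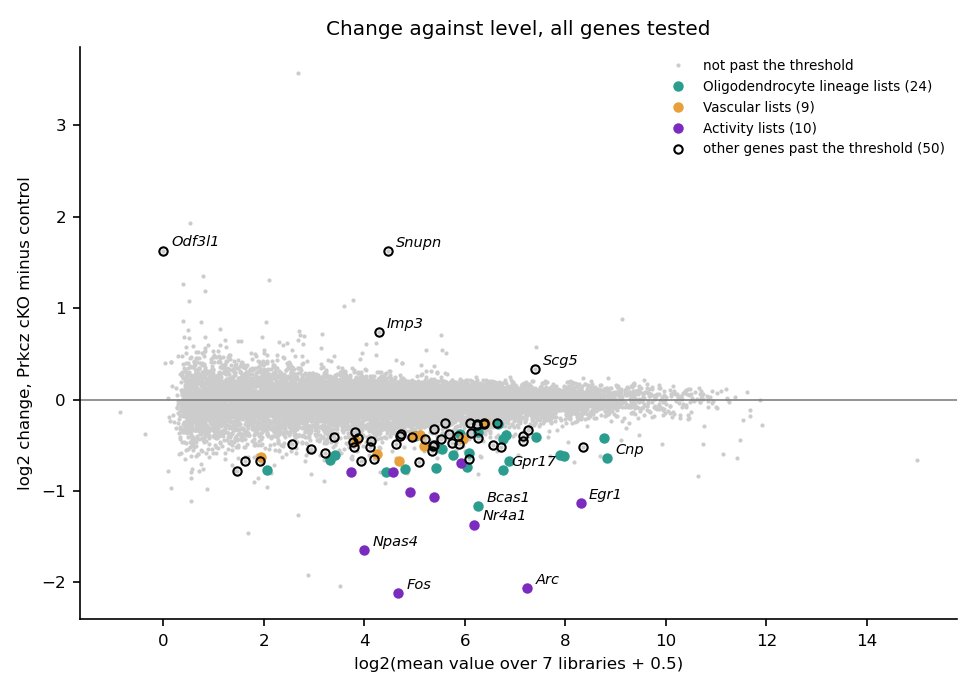
Log2 change, Prkcz cKO minus control (vertical), against log2 of the mean value over 7 libraries plus 0.5 (horizontal) for 14330 genes; each point is a gene, and coloured or ringed points are the 93 past the threshold. Of these, 24 belong to oligodendrocyte lineage lists, 9 to vascular lists, 10 to activity lists and 50 to none of these, and the 4 above 0 are Odf3l1, Snupn, Imp3 and Scg5.

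The genes that rose were few, and 3 of the 4 lie near each other on chromosome 9. Snupn, which encodes the adaptor that carries small nuclear ribonucleoproteins back into the nucleus (chromosome 9, 56950878 to 56983206), had values of 10.94, 11.19, 11.71 and 10.85 in the controls and 35.32, 32.31 and 38.88 in Prkcz cKO. The groups are far apart and the controls of both genotypes lie together (log2 change 1.62, SE 0.0679, adjusted p = 2.48e-08). Imp3, a ribosomal RNA processing protein (chromosome 9, 56937475 to 56938398), was 14.18, 13.19, 15.72 and 15.51 in the controls and 24.83, 24.45 and 24.79 in Prkcz cKO (log2 change 0.74, SE 0.0709, adjusted p = 3.68e-04). Odf3l1, a gene named for the outer dense fibre of sperm tails (chromosome 9, 56848659 to 56864679), was listed at 0.04, 0.04, 0 and 0 in the controls and at 1.42, 1.15 and 0.81 in Prkcz cKO. Its fitted change of 1.63 (adjusted p = 0.00872) depends on the 0.5 added before the logarithm. No control reached the filter's value of 1, so this gene was tested only through libraries with Cre, where it is high. Without Prkcz cKO replicate 1 or 2 it no longer met the filter and was not tested. It kept its call in the 5 other runs with 1 library left out (highest limma adjusted p = 0.0204).

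These 3 genes surround Cspg4, whose regulatory sequence drives the Cre. Odf3l1 starts 0.4 kb before the start of Cspg4 (chromosome 9, 56865033 to 56899870), on the other strand, Imp3 starts 72.4 kb after it and Snupn 85.8 kb after it. Strand-specific counting is stated nowhere in the labels or notes, so Odf3l1 is uncertain where it neighbours Cspg4. Of 14 tested genes within 0.5 Mb of Cspg4, these 3 rose and none fell. Odf3l1 entered this count only through libraries with Cre, so its rise is not separate support. Of the other 784 tested genes of chromosome 9, none rose and 3 fell. Snx33, which starts between Cspg4 and Imp3, had a change of 0.06 and Ptpn9, beyond Snupn, also 0.06, so the rise did not cover every gene of the interval. Cspg4 itself was 17.33, 17.45, 20.08 and 14.58 in the controls and 22.36, 23.88 and 18.22 in Prkcz cKO. Its groups overlap through Control replicate 3 and Prkcz cKO replicate 3, and it did not pass (log2 change 0.30, adjusted p = 0.224). In the direct test against Prkci cKO, which carries a Cre of the same driver, the differences were 0.00 for Snupn (SE 0.0679), 0.16 for Imp3 (SE 0.0709) and 0.23 for Odf3l1 (SE 0.221), and none passed. Prkci cKO, labelled with floxed Prkci instead, also differed from the controls. The changes were 1.62 for Snupn (limma adjusted p = 8.92e-09), 0.57 for Imp3 (9.84e-04) and 1.4 for Odf3l1 (0.00284). The controls have neither Cre nor, by their labels, its transgene. In Prkcz cKO against control alone, deletion and transgene cannot be told apart, and the source of these values was not tested.

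Near Prkcz, where floxed chromosomes carry linked sequence from the line they were made in, 55 genes within 2 Mb were tested and none passed, with a median change of 0.00. One of them, Noc2l, a nucleolar protein gene 874.6 kb from the start of Prkcz, instead followed the floxed genotype. It was 56.23 and 50.41 in the f/+ controls, 35.32 and 36.86 in the f/f controls and 38.06, 36.67 and 38.46 in Prkcz cKO. The f/f and f/+ controls differed by -0.55 (adjusted p = 0.00407), and Prkcz cKO and the f/f controls by 0.06 (adjusted p = 0.690). The plot of both neighbourhoods shows these genes beside the others tested.

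**Figure D2:**
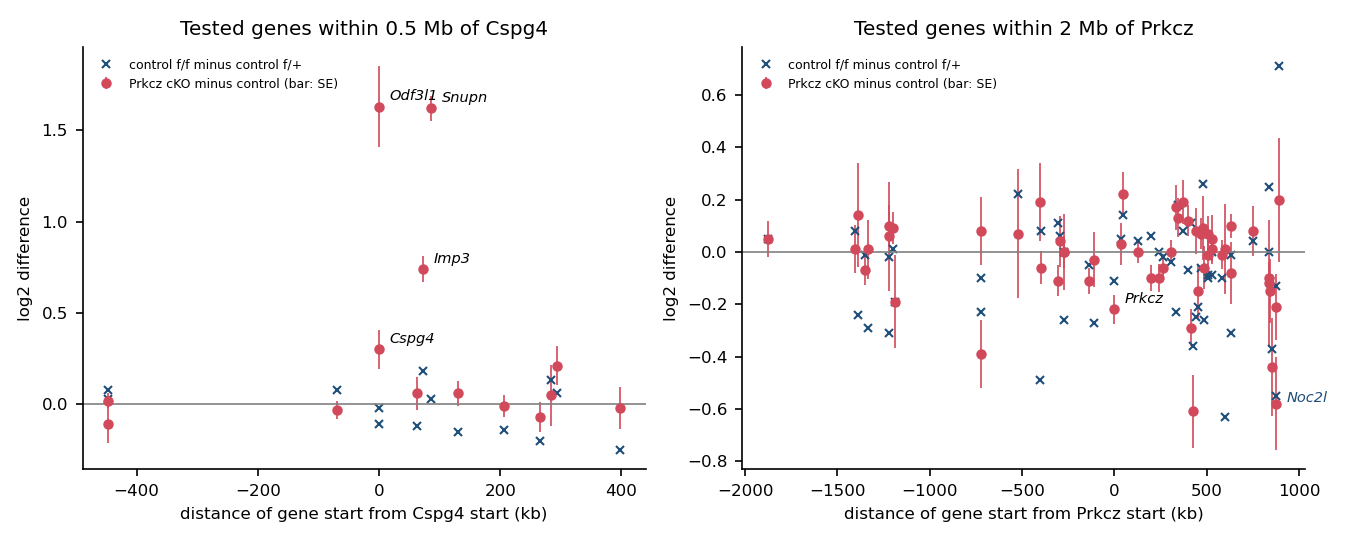
Log2 difference (vertical) of each tested gene against the distance of its start from the start of Cspg4 (left) or Prkcz (right), in kb; red points are Prkcz cKO minus control with the standard error as bars, and blue crosses are f/f minus f/+ controls. Odf3l1, Imp3 and Snupn stand at 1.63, 0.74 and 1.62 while the other genes near Cspg4 lie close to 0, and near Prkcz no red point passed the threshold.

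Genes of the oligodendrocyte lineage made up 24 of the 89 that fell, and 11 of these 24 mark the stage between precursor and mature cell. Of 30 tested genes of committed precursors and newly formed oligodendrocytes, 11 fell and none rose, against 0.621% lower over all genes. Below 0 were 28 of 30, against 51.8% of all genes. The median change was -0.34, against -0.01 over all genes. The lists and their members were chosen with earlier results of these data known. List counts and medians, here and below, are therefore descriptions and not independent support. In whole tissue, fewer cells of a type and less RNA per cell cannot be told apart, here and in each group below.

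Gpr17, a G protein-coupled receptor typical of this stage, was 128.55, 137.46, 128.84 and 130.27 in the controls and 80.23, 78.43 and 72.07 in Prkcz cKO. The 4 controls, of both genotypes, lie within a narrow band well above all 3 knockouts (log2 change -0.77, SE 0.0677, adjusted p = 1.86e-04). Tns3, tensin 3, a link between integrins and actin, was 84.18, 84.71, 69.85 and 76.39 in the controls and 53.02, 56.54 and 47.28 in Prkcz cKO (log2 change -0.59, adjusted p = 0.00872). Bcas1, a marker of oligodendrocytes that are starting to myelinate, was 130.91, 106.69, 74.89 and 91.99 in the controls and 45.52, 45.64 and 40.64 in Prkcz cKO (log2 change -1.17, SE 0.184, adjusted p = 0.0191). The knockouts agree closely for Bcas1, while the f/f controls (74.89 and 91.99) lie below the f/+ controls. Cnksr3, a scaffold of Ras signalling, was 12.29, 12.65, 11.95 and 11.13 against 7.13, 7.55 and 8.53 (log2 change -0.60, adjusted p = 0.0179). Sema4d, a membrane semaphorin of oligodendrocytes, was 90.05, 83.47, 82.83 and 80.21 against 67.48, 63.34 and 66.11 (log2 change -0.35, adjusted p = 0.0126). The focal adhesion protein Parvb (-0.40), the ubiquitin ligase Rnf122 (-0.66), Nfasc (-0.42), Frmd4a (-0.38) and Epb4.1l2 (-0.26) also fell, and 1 member is an unnamed gene model. Epb4.1l2 lost its call whichever of the 7 libraries was left out. Nfasc encodes neurofascin, whose isoforms serve both the axon at the node of Ranvier and the glial side of the paranode, and it was the 1 gene of 24 in the node and paranode list to fall. Other members of the stage did not pass: Enpp6 had a change of -0.51 (adjusted p = 0.201), Itpr2 of -0.44 (adjusted p = 0.207) and the Src family kinase Fyn of -0.10 (adjusted p = 0.244).

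Tns3 is a member of this group whose start region is given here because it carries a SOX core, the short sequence that SOX10 and other SOX factors can bind. The sequence is the 250 bases before the RefSeq start on GRCm38.p6, chr11:8664536-8664785, minus strand, with the match in capitals (the reverse complement of ACAATG). This gene and the motif were chosen after values were seen.
Tns3: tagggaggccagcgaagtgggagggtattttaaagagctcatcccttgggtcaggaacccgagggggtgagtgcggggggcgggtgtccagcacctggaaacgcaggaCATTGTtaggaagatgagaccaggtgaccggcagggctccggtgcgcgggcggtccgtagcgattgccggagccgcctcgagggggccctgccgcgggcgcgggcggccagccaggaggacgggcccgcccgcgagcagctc

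ACAAAG or ACAATG was searched on both strands of the 250 bases before each RefSeq start of tested genes, 14078 starts for 10947 genes. A gene counted if any of its starts had a match, so genes with more starts had more bases searched. Of single starts, 17.3% had a match. The shares of genes below are not corrected for this. At least 1 match was found for 11 of 17 oligodendrocyte genes that passed (64.7%; 7 of the 24 had no entry), for 29 of 73 of the lineage lists that did not pass (39.7%) and for 2200 of 10947 tested genes (20.1%). A match is a run of letters and not a measured binding site.

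Myelin genes had lower values in Prkcz cKO as well, but here the controls were spread. Of 24 structural myelin genes, 7 fell and 23 were below 0, against 0.621% and 51.8% of all genes, with a median of -0.60. The 7 that fell were Ermn (-0.73), Ugt8a (-0.67), Cnp (-0.64), Cldn11 (-0.61), Tspan2 (-0.61), Gjc3 (-0.61) and Sirt2 (-0.41). Ugt8a, which makes the galactosyl head group of myelin galactolipids, was 151.78, 150.29, 123.61 and 128.56 in the controls and 94.25, 77.64 and 87.78 in Prkcz cKO (adjusted p = 0.0215). Ermn, ermin, a cytoskeletal protein of myelinating cells, was 91.1, 85.64, 67.83 and 73.22 against 48.64, 43.34 and 50.12 (adjusted p = 0.0265). Cnp, the cyclic nucleotide phosphodiesterase that keeps cytoplasmic channels in myelin open, was 644.11, 565.86, 470.79 and 471.39 against 336.29, 322.26 and 372.26 (adjusted p = 0.0359). In each of these genes the 2 f/f controls lay between the f/+ controls and the knockouts. All 7 genes lost their calls when Control replicate 1 or 2, or Prkcz cKO replicate 2 or 3, was left out. Other well-known myelin genes did not pass. Mbp, myelin basic protein, was 2772.39, 2097.4, 1369.8 and 1654.04 in the controls and 1184.49, 1066.43 and 968.11 in Prkcz cKO (log2 change -0.83, SE 0.224, adjusted p = 0.114). Mag had a change of -0.62 (adjusted p = 0.0708), Mog of -0.56 (adjusted p = 0.0969) and Mobp of -0.63 (adjusted p = 0.154). Omg was the member above 0 (log2 change 0.12, adjusted p = 0.234).

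Beyond structural myelin, 4 of 39 genes of mature oligodendrocytes fell and 38 were below 0, against 0.621% and 51.8% of all genes. The median was -0.35. Lpar1, a lysophosphatidic acid receptor, was 58.32, 51.95, 44.36 and 50.45 in the controls and 28.55, 28.51 and 33.8 in Prkcz cKO (log2 change -0.75, adjusted p = 0.00872). The plexin Plxnb3 (-0.80), the matrix protease Adamts4 (-0.76) and the carbonic anhydrase Car2 (-0.39) were the others. With 1 of the 7 libraries left out in turn, Plxnb3 kept its call in 1 run, and Adamts4 and Car2 in 4 each. Of 23 genes of sphingolipid and very long chain fatty acid synthesis, Ugt8a and the elongase Elovl5 (-0.25) fell, with a list median of -0.16. Elovl5 kept its call in 1 of these 7 runs. No gene of 26 in cholesterol synthesis passed (median -0.09).

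Precursor genes had the smallest median of the 4 lists of lineage stages. Of 27 oligodendrocyte precursor genes, Sox10 and Olig1 fell, against 0.621% of all genes, and the median change was -0.14. Pdgfra, the growth factor receptor that defines precursors, was 78.32, 76.85, 79.3 and 78.61 in the controls and 72.82, 81.39 and 64.68 in Prkcz cKO. The knockouts lay on both sides of the controls (log2 change -0.11, adjusted p = 0.443). Ptprz1 had a change of -0.17 (adjusted p = 0.418), and Cspg4, given above, one of 0.30. Sox10 and Olig1 were also the 2 of 30 lineage transcription factors that fell (list median -0.20). Sox10, which drives myelin genes, was 65.28, 52.88, 51.43 and 45.69 in the controls and 34.14, 36.46 and 38.81 in Prkcz cKO (log2 change -0.55, adjusted p = 0.0334). Olig1 was 138.6, 121.43, 115.44 and 108.2 against 86.03, 88.54 and 92.39 (log2 change -0.43, adjusted p = 0.0329). For both genes the f/f controls lay between the f/+ controls and the knockouts. With 1 of the 7 libraries left out in turn, Sox10 kept its call in 1 run and Olig1 in 2. Olig2 (-0.37, adjusted p = 0.0574), Zfp488 (-0.57, adjusted p = 0.0595), Nkx6-2 (-0.67, adjusted p = 0.0690) and Nkx2-2 (-0.60, adjusted p = 0.0789) did not pass. The lineage lists share members, so their counts are not separate evidence.

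**Figure D3:**
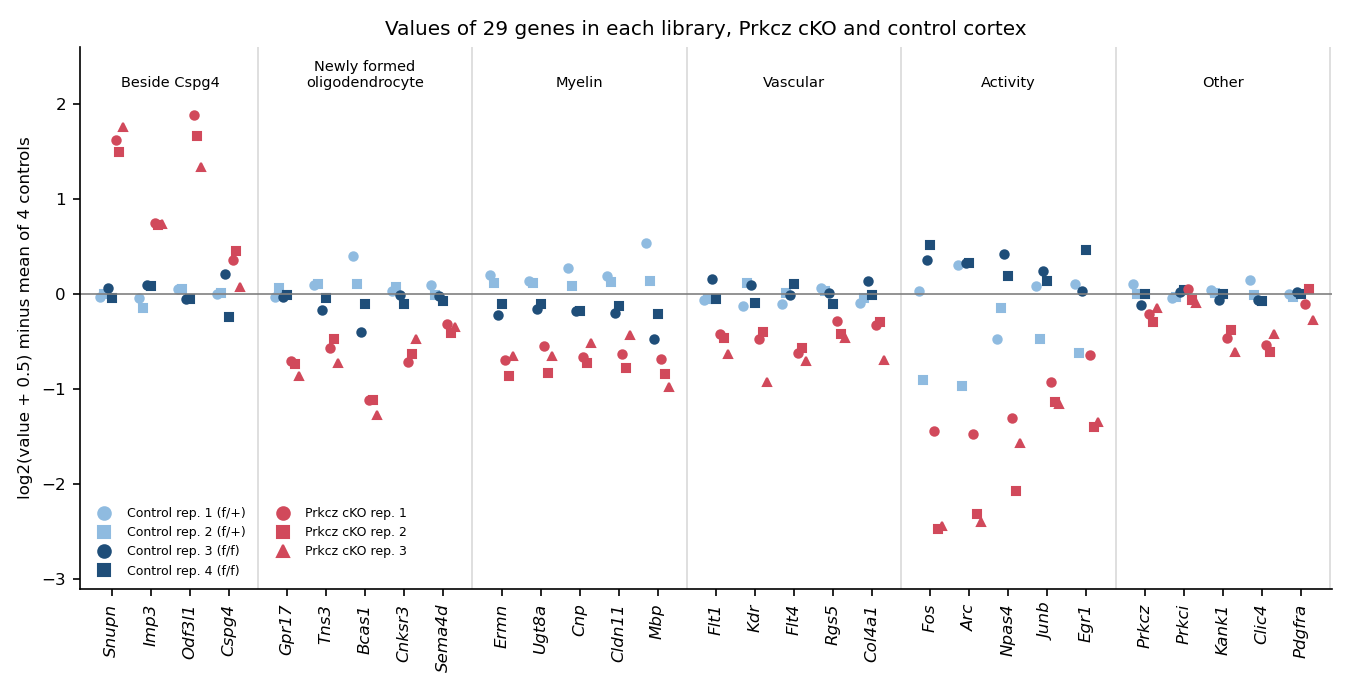
Log2(value + 0.5) minus the mean of 4 controls (vertical) for 29 genes in 7 libraries (horizontal: genes in 6 groups); light blue marks f/+ controls, dark blue f/f controls and red Prkcz cKO. Control points of Gpr17 and Snupn lie together, f/f controls of Bcas1 and Mbp lie below f/+ controls, and Control replicate 2 stands low for Fos and Arc.

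Splitting the controls by genotype showed which groups this spread touches. The f/f and f/+ controls differed at 22 of 14330 genes (0.154%), 13 lower (0.0907%) and 9 higher (0.0628%) in f/f. The median difference, f/f minus f/+, was -0.33 for structural myelin genes and -0.35 for mature oligodendrocyte genes, though no member of either list passed. It was -0.07 for newly formed oligodendrocyte genes, of which Chn2 passed as lower in f/f (-0.55, adjusted p = 0.0333), and 0.02 for precursor genes, of which none passed. Against the f/f controls alone, which share the floxed genotype of the knockout but lack Cre, 57 genes passed (0.398%), 40 lower (0.279%) and 17 higher (0.119%), of which 24 were among the 93. The median for structural myelin was then -0.39 with none of 24 past the threshold. For newly formed oligodendrocyte genes it was -0.31 with 3 of 30 lower: Gpr17 (-0.75, adjusted p = 0.00116), Tns3 (-0.48, adjusted p = 0.0185) and Sema4d (-0.31, adjusted p = 0.0452). Lpar1 also fell against the f/f controls (-0.64, adjusted p = 0.0306). With 2 animals a genotype, control genotype and differences between single animals or punches cannot be told apart.

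**Figure D4:**
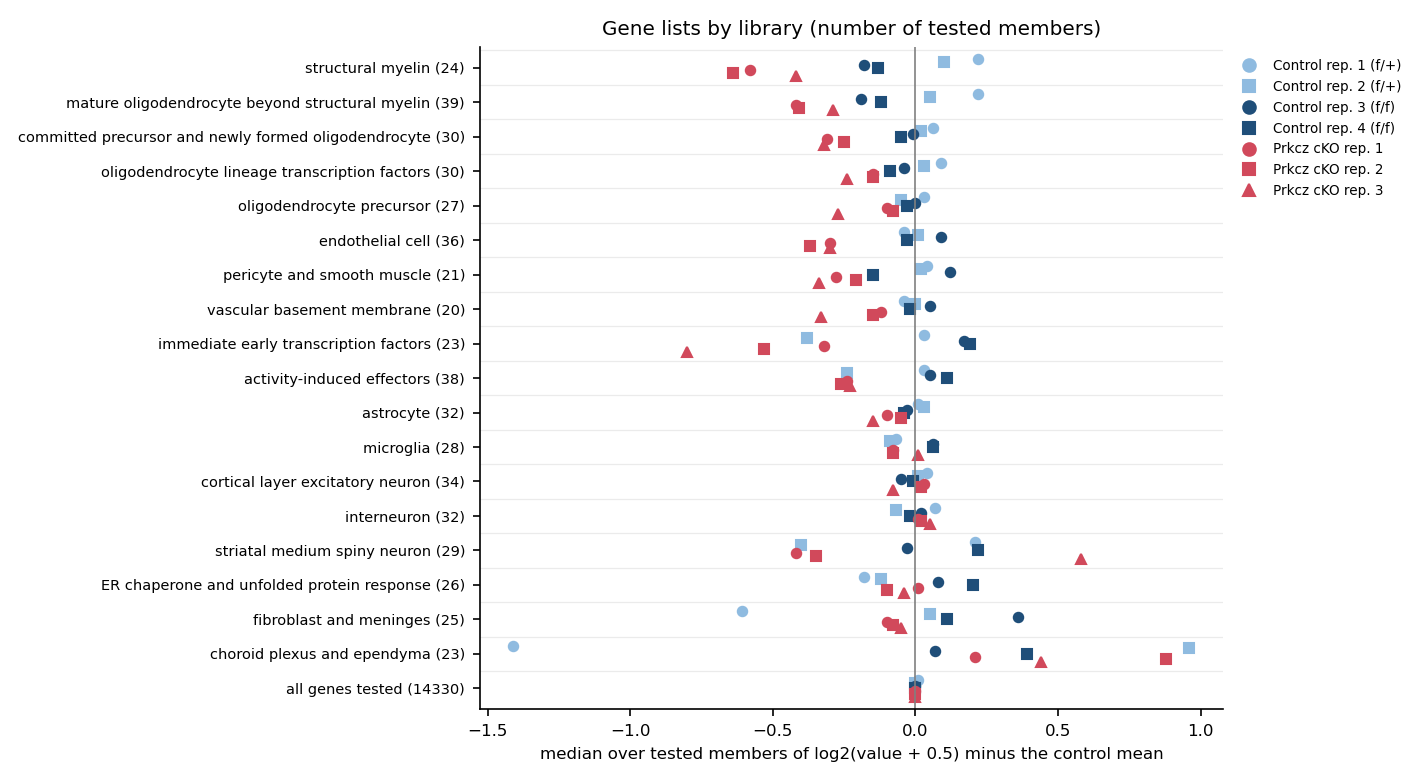
Median over the tested members of 18 gene lists, and over all genes tested, of log2(value + 0.5) minus the control mean (horizontal) in each of 7 libraries; light blue marks f/+ controls, dark blue f/f controls and red Prkcz cKO. Red points lie below all blue points for the myelin, newly formed oligodendrocyte and endothelial lists, while Control replicate 2 (-0.38) falls among the knockouts for immediate early genes.

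Vascular genes were a second group with lower values. Of 36 endothelial genes, 5 fell and all 36 were below 0, against 0.621% and 51.8% of all genes. None rose, and the median was -0.33. The median was -0.39 against the f/f controls, and f/f minus f/+ was 0.07. The summed value of the list was 624 to 701 in the controls and 524 to 539 in Prkcz cKO. Flt1, a receptor for vascular endothelial growth factor (VEGF), was 39.29, 39.6, 45.77 and 39.5 in the controls and 30.5, 29.53 and 26.28 in Prkcz cKO (log2 change -0.50, SE 0.0711, adjusted p = 0.00964). Kdr, the main signalling receptor for VEGF, was 19.82, 23.66, 23.27 and 20.36 against 15.47, 16.33 and 11.24 (log2 change -0.60, SE 0.119, adjusted p = 0.0379). Flt4, the third receptor of the family, was 3.72, 4.08, 4.02 and 4.38 against 2.47, 2.56 and 2.3 (log2 change -0.63, adjusted p = 0.0215). The groups of all 3 receptors are separate. The endothelial transcription factor Ets1 (-0.45) and the adhesion receptor Gpr116 (-0.40) fell too. General markers of endothelium had smaller changes that did not pass: Pecam1 had a change of -0.21 (adjusted p = 0.235), Cdh5 of -0.17 (adjusted p = 0.418) and Cldn5 of -0.14 (adjusted p = 0.379). No gene of 24 in the list of blood-brain barrier junctions and transporters passed (median -0.15). Kdr and Gpr116 lost their calls whichever of the 7 libraries was left out, and Flt1 kept its call in every case.

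Pericytes, which also make NG2, were represented by 21 tested genes together with smooth muscle. Rgs5 and Mcam fell and 17 were below 0 (median -0.29), against 0.621% and 51.8% of all genes. Rgs5, a regulator of G protein signalling typical of pericytes, was 39.24, 38.38, 37.93 and 34.87 in the controls and 30.91, 28.02 and 27.1 in Prkcz cKO (log2 change -0.39, adjusted p = 0.0197). Mcam, an adhesion molecule, was 36.27, 30.99, 26.08 and 27.67 against 17.13, 20.22 and 18.9 (log2 change -0.67, adjusted p = 0.0353), with f/f controls below f/+ controls. Pdgfrb, the receptor that marks pericytes, had a change of -0.30 (adjusted p = 0.245) and the channel subunit Kcnj8 of -0.26 (adjusted p = 0.372). Of 20 vascular basement membrane genes, Col4a1 (-0.44, adjusted p = 0.0359) and the integrin Itgb1 (-0.26, adjusted p = 0.0379) fell, with a median of -0.20. Itgb1 lost its call whichever of the 7 libraries was left out. Col4a1 kept its call in 1 of these 7 runs and Mcam in 2. Epas1, a hypoxia-inducible factor strong in endothelium and in none of the lists, fell by 0.33 (adjusted p = 0.0443). Its call held in 1 of the 7 runs.

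The direct test between the knockouts, in which the controls add only to the estimate of spread, called 43 of 14330 genes (0.300%), 34 lower (0.237%) and 9 higher (0.0628%) in Prkcz cKO. Of the 93 genes, 9 were among them, and 8 of these are Flt1, Kdr, Flt4, Ets1, Gpr116, Rgs5, Col4a1 and Epas1. The ninth is Slfn5, of the Schlafen family (difference -0.57, adjusted p = 0.0412). Kdr was 29.28, 30.08, 24.45 and 25.7 in Prkci cKO, above every Prkcz cKO library (difference -0.92, SE 0.119, adjusted p = 0.00840). These Prkci cKO values also lay above every control, so the difference is not only a fall in Prkcz cKO. Flt1 differed by -0.68 (adjusted p = 0.00140) and Col4a1 by -0.60 (adjusted p = 0.00890). Of the 36 endothelial genes, 12 passed as lower in Prkcz cKO in this test. The list median was -0.45 against Prkci cKO and -0.33 against the controls. In that test no member of the structural myelin, mature, newly formed or precursor lists was lower. Their list medians, Prkcz cKO minus Prkci cKO, were 0.21, 0.16, -0.02 and 0.01, in that order. For Gpr17 the difference was -0.17 (SE 0.0677, adjusted p = 0.252), and for Ugt8a 0.19 (SE 0.114, adjusted p = 0.423). Line and kinase cannot be told apart in it.

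Among other glia, Aqp4, the water channel of astrocyte endfeet on vessels, was 138.26, 170.93, 169.53 and 168.53 in the controls and 127.95, 119.26 and 105.87 in Prkcz cKO (log2 change -0.46, adjusted p = 0.0353). It was the 1 of 32 astrocyte genes to fall (list median -0.10). With 1 of the 7 libraries left out in turn, Aqp4 kept its call in 2 runs. Gfap had a change of -0.40 (adjusted p = 0.0558) and the glutamate transporter Slc1a2 of -0.28 (adjusted p = 0.239). No gene of 28 in the microglia list passed (median -0.05).

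Activity-induced genes were another group, and Fos and Arc had the largest changes of the 93 genes. Of 23 immediate early transcription factors, which neurons switch on within minutes of firing, 6 fell and none rose, with a median of -0.46. Of 38 activity-induced effectors, 4 fell (median -0.24), and over all genes 0.621% fell. Fos was 36.1, 18.6, 45.28 and 50.63 in the controls and 12.68, 5.96 and 6.1 in Prkcz cKO (log2 change -2.12, SE 0.300, adjusted p = 0.00964). Arc, whose protein acts at synapses, was 260.38, 107.62, 264.4 and 263.41 against 75.33, 41.93 and 39.69 (log2 change -2.06, SE 0.356, adjusted p = 0.0231). Control replicate 2 was the lowest control and Prkcz cKO replicate 1 the highest knockout in both, and the groups did not overlap. Npas4 was 15.31, 19.22, 28.83 and 24.5 against 8.34, 4.72 and 6.91 (log2 change -1.64, adjusted p = 0.0210). Egr1, Nr4a1, Junb and Egr4 fell by 1.13, 1.37, 1.07 and 0.79. Among the effectors, the kinase Sik1 (-0.79) and the phosphatases Dusp1 (-1.01) and Dusp6 (-0.69), which switch off mitogen-activated kinases, fell as well. All 10 genes lost their calls when either Prkcz cKO replicate 2 or 3 was left out.

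As a list, the immediate early genes did not separate the groups: their median was -0.38 in Control replicate 2 and -0.32 in Prkcz cKO replicate 1. The f/f controls were higher than the f/+ controls by a median of 0.39, opposite in sign to myelin genes. List medians were 0.03 and -0.38 in the f/+ controls and 0.17 and 0.19 in the f/f controls. The difference thus came largely from Control replicate 2. Against the f/f controls, 8 of the 23 fell (median -0.49), among them Egr2 (-2.65, adjusted p = 0.00252), and 7 of the 38 effectors. Over all genes, 0.279% fell against the f/f controls. Against Prkci cKO the median difference was -0.06 and none of the 23 was lower. For the 38 effectors it was -0.01, and the clock gene Per2 was lower (-0.68, adjusted p = 0.0397). The labels give neither the time of day nor the handling before death, and their part in these values was not tested.

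Start regions of 2 of these genes are given because they hold several copies of TGACG, the core of the cyclic AMP response element (CRE) through which CREB acts. Each is the 250 bases before a RefSeq start on GRCm38.p6, with matches on either strand in capitals (CGTCA is the reverse complement). Fos is at chr12:85473640-85473889, plus strand, and Nr4a1 at chr15:101266596-101266845, plus strand.
Fos: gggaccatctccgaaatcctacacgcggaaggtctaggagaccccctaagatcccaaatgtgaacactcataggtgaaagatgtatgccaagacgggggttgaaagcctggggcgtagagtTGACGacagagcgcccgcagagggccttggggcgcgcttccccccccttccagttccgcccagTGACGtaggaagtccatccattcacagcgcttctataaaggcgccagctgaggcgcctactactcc
Nr4a1: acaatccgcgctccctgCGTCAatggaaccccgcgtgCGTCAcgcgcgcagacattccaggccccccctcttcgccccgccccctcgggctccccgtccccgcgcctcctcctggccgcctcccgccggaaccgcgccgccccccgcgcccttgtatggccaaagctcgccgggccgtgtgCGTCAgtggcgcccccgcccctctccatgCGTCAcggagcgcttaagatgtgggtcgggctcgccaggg

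TGACG was found on either strand in 6 of 7 activity genes that passed and had an entry (85.7%), in 25 of 40 activity genes that did not pass (62.5%) and in 3284 of 10947 tested genes (30%). Here too a gene counted if any of its starts had a match, and of single starts 25.5% had one. The whole palindrome TGACGTCA, which contains that core, was in 1 of the 7 and in 3.0% of tested genes. The motif and both genes were chosen after values were seen.

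Lists of secretory granule, neuropeptide and synaptic receptor genes showed little change. Scg5, a chaperone of the prohormone convertase in secretory granules, was the other gene that rose, with 153.62, 157.79, 151.62 and 136.76 in the controls and 186.43, 173.77 and 208.41 in Prkcz cKO (log2 change 0.34, SE 0.0674, adjusted p = 0.0407). It lost its call with any 1 of the 7 libraries left out, and no other of 25 secretory granule and neuropeptide genes passed (median 0.06). No member passed among 33 genes of glutamate receptors and postsynaptic scaffolds (median -0.07) or 12 GABA-A receptor subunits (median 0.04).

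Few genes of pathways linked to polarity kinases in other settings passed. Of 25 genes of actin nucleation and the Arp2/3 complex, the subunit Arpc1b fell (log2 change -0.51, adjusted p = 0.0265). Arpc1b was 15.49, 15.98, 15.92 and 13.88 in the controls and 11.42, 9.46 and 10.9 in Prkcz cKO. With 1 of the 7 libraries left out in turn, it kept its call in 2 runs. The list median was 0.01. No member of the 22 tested Hippo and YAP targets passed, though all 22 were below 0 (median -0.16), against 51.8% of all genes. Their lowest change was -1.26, and 1 member, Cyr61, fell against the f/f controls. None passed among 26 genes of mTOR and insulin-like growth factor signalling (median -0.07), 21 of the Notch pathway (median -0.13) or 27 of the Wnt pathway (median -0.08).

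The 45 genes outside the lists were named here after their values were seen, where their function is well known. Kank1, a scaffold between focal adhesions and microtubules, was 28.66, 27.88, 26.66 and 27.76 in the controls and 19.97, 21.19 and 18.02 in Prkcz cKO (log2 change -0.48, SE 0.0665, adjusted p = 0.00872). Its controls lie within a narrow band whichever their genotype, and it fell against the f/f controls too (-0.46, adjusted p = 0.0282). Clic4, an intracellular chloride channel protein, was 133.98, 119.92, 115.53 and 115.33 against 83.39, 79.14 and 90.08 (log2 change -0.52, adjusted p = 0.00872). Serinc5, a membrane protein named for serine incorporation, was 122.03, 103.45, 104.74 and 97.68 against 70.07, 77.86 and 78.84 (log2 change -0.50, adjusted p = 0.0130). All knockout libraries of these 3 genes lay clearly below the controls.

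Some of the 45 are known from oligodendrocytes although no list held them. Qk, the RNA-binding protein quaking that handles myelin messenger RNAs, was 396.46, 414.33, 327.58 and 361.34 in the controls and 286.51, 272.33 and 225.08 in Prkcz cKO (log2 change -0.52, adjusted p = 0.0265). The fibroblast growth factor receptor Fgfr2 (-0.43), the peptidylarginine deiminase Padi2, which can citrullinate myelin basic protein (-0.43), and Gatm, the first enzyme of creatine synthesis (-0.49), fell too. Others act on the cytoskeleton or on small GTPases: the guanine nucleotide exchange factors Dock10 (-0.56) and Arhgef10 (-0.51), the myosin Myo1d (-0.65), Wipf1, a partner of WASP (-0.52), the formin Daam1 (-0.25) and Arap1 (-0.35). Signalling genes among them were the netrin receptor Unc5b (-0.68), Hhip, an inhibitor of hedgehog ligands (-0.67), Gab1, a docking protein of growth factor receptors (-0.50), Erbb2ip, a binding partner of ERBB2 (-0.42), and the pseudokinase Trib2 (-0.40).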

How the data were processed

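RNA of 7 cortex punches (3 Prkcz cKO, 4 control) and of 4 Prkci cKO punches was sequenced. Per the submitters' processing notes, FastQC, Trim Galore, STAR, RSEM and edgeR were used on GRCm38; no version and no description of the scaling is given in the sources used here. What the authors deposited is a normalized expression signal per gene and library, with 2 decimals and column sums of 1021767 to 1082562. Depth was read from the steps of values under 0.5, of which 85.9% to 89.2% lay within 0.005 of a whole multiple. That is too few to treat the values as whole reads, so no count test was run.

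Genes with at least 1 in at least 3 libraries were fitted as log2(value + 0.5), which understates changes of low genes. The tool was limma 3.58.1 (R 4.3.3) with a variance trend, a term per group, 8 residual degrees of freedom and two-sided Benjamini-Hochberg adjusted p-values (threshold 0.05). A second fit split the controls by genotype (7 residual degrees of freedom). The procedure was run on simulated data with independent normal noise for each gene. That setting lacks the shared shifts of related genes between libraries, so it does not show error rates for such genes. The series calls the replicates biological.

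The genes to name were set by rule: Prkcz and Prkci, all genes that rose, the 30 largest falls among genes without overlap whose mean log2 value reached 2, up to 5 members of each of 38 lists by smallest p, genes at the threshold and genes near Cspg4 and Prkcz. Genes named outside it were chosen after their values were seen, and not all genes it names are printed. The comparison, its lists and its members were chosen with earlier results of these data known. List counts and medians are descriptions. Positions are those of GENCODE M21 or RefSeq synonyms for 15526 of 16228 symbols. Promoters are RefSeq's. Replicate numbers did not pair the samples (deviations of same-numbered libraries correlated at -0.04, 0.16 and 0.02). Results were recomputed with other pseudocounts, filters, scalings, variance models, sets of libraries and control genotypes, with a replicate block and without each library.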

Additional observations from a re-analysis of the deposited data

Results flagged for a closer look

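In 6 of 104 named genes checked, 1 control stood apart from the other 3 by a Dixon gap test, close to the 1 in 20 groups that chance flags. Arc was 107.62 in Control replicate 2, below the other controls, and Aqp4 was 138.26 in Control replicate 1, below them but above every Prkcz cKO library. Flt1 was 45.77 and Epb4.1l2 102.81 in Control replicate 3, the first above and the second below the others. Enpp6 was 20.17 and Dock10 55 in Control replicate 1.

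The change against control differed between the knockouts for 9 of the 93 genes in the direct limma test, each lower in Prkcz cKO. The log2 differences were -0.69 for Flt4, -0.92 for Kdr, -0.68 for Flt1, -0.47 for Ets1, -0.45 for Gpr116, -0.44 for Rgs5, -0.60 for Col4a1, -0.38 for Epas1 and -0.57 for Slfn5.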

How the results depend on the processing

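The count of genes past the threshold moved with the model, the reference and the libraries. Against 93 genes (89 lower, 4 higher), it was 30 (25 lower) without a variance trend and 29 (26 lower) with only the 7 libraries fitted, and 27 genes were shared with the 93 in each case. It was 57 (40 lower, 17 higher) with the f/f controls as reference and 198 (184 lower, 14 higher) with the f/+ controls. Leaving out 1 library gave 12 to 76 genes (9 to 73 lower), and leaving out both Prkcz cKO replicate 3 and Control replicate 1, a choice made after the data were seen, gave 7 (4 lower), close to even. The direct test between knockouts went from 43 genes to 112 with array weights and to 10 to 151 with 1 library left out, from 10 without Prkci cKO replicate 1 to 151 without Prkcz cKO replicate 1. The 22 genes between control genotypes became 12 without a variance trend. The 57 against the f/f controls became 30 without a trend, 136 with array weights and 19 to 83 with 1 library left out. The Prkcz change was -0.27 and passed against the f/+ controls (adjusted p = 0.0428). List medians that moved beyond the spread between replicates were structural myelin (-0.39 against f/f), mature oligodendrocyte (-0.52 against f/+), newly formed oligodendrocyte (-0.40 against f/+), precursor (-0.09 with array weights, -0.24 to -0.09 with 1 library left out) and endothelial (-0.39 against f/f, -0.27 against f/+). Small changes that had not passed took the other sign against the f/+ controls: Prkci 0.01, Ptpn9 -0.02 and Gabra2 0.08. Other pseudocounts, filters and scalings kept these counts within 1.5 times. The cause of these shifts was not tested.

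With the replicate number as a block, 69 genes passed (66 lower, 3 higher; 53 of them among the 93) and 73 between the knockouts. Same-numbered samples share only a number here. Prkcz cKO replicate 3 was the shallowest library, the comparison has 3 against 4 animals, and differences between control genotypes rest on 2 animals each.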

Other observations

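Genes that separated the control genotypes included several unrelated to myelin. Of the 22 genes that passed between f/f and f/+ controls, the Prkcz cKO mean was nearer the f/+ mean in 19 and nearer the f/f mean, its own floxed genotype, in 3, Noc2l among them. Gabra2, a GABA-A receptor subunit, was 44.37 and 43.87 in the f/+ controls, 102.52 and 98.28 in the f/f controls and 50.18, 47.93 and 42.33 in Prkcz cKO (f/f minus f/+ 1.18, limma adjusted p = 8.41e-04; Prkcz cKO minus f/f -1.10, adjusted p = 1.67e-04). Over all 4 controls its change of -0.51 did not pass (adjusted p = 0.373). Ndn, an imprinted gene of neurons, was 179.51 and 180.75 in the f/+ controls, 98.55 and 115.24 in the f/f controls and 195.58, 211.64 and 213.15 in Prkcz cKO (f/f minus f/+ -0.75, adjusted p = 0.00362). In Prkci cKO, Gabra2 was 41.84 to 54.36 and Ndn 178.28 to 205.75, so for both genes the 2 f/f controls stood apart from the other 9 libraries.

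Of 26 tested chaperone and stress response genes of the endoplasmic reticulum, 4 passed as higher in the f/f controls, against 0.0628% of all genes. Hspa5, the main chaperone of this compartment, was 293.9 and 321.58 in the f/+ controls, 436.54 and 496.69 in the f/f controls and 372.26, 343.64 and 350.04 in Prkcz cKO (f/f minus f/+ 0.60, adjusted p = 0.00407). Calr (0.37), Hsp90b1 (0.37) and Pdia6 (0.52) were the others, and the median over the 26 genes was 0.26. Cyr61, a secreted matrix protein gene and a YAP target, was 4.99 and 4.4 in the f/+ controls, 12.58 and 10.9 in the f/f controls and 2.96, 2.96 and 2.57 in Prkcz cKO, below both control genotypes (change against f/f -1.88, adjusted p = 1.67e-04). Cirbp and Rbm3, RNA-binding proteins known to respond to cold, were higher in Prkcz cKO than in the f/f controls by 0.59 (adjusted p = 0.00679) and 0.76 (adjusted p = 0.0282). Against all 4 controls their changes of 0.37 and 0.50 did not pass (adjusted p = 0.157 and 0.151). These genes were picked out after their values were seen.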
